A study of Homo sapiens with 2 samples.

Results

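The regions described here are the peaks of a CRTC2 RNA immunoprecipitation that lie outside the assembled chromosomes of the human genome. They were taken from the authors' deposited peak list as every peak whose sequence name contains the character _, which is how hg38 names its alternative, random and unplaced contigs. The rule uses the name alone and no measured value, and it selected 1138 of 175546 peaks (0.648%). Of these, 1037 lay on 108 alternative contigs, 68 on 8 random contigs and 33 on 5 unplaced contigs, so the random contigs belong to the set as well. The other 174408 peaks lay on 25 placed sequences, which are called placed chromosomes below. The immunoprecipitated library (RIP) came from HCCLM3, a human hepatocellular carcinoma line of unmodified (WT) genotype, and held the RNA recovered with CRTC2. The input library held the RNA of HCCLM3 cells of the same WT genotype before precipitation. There was 1 library of each kind and no precipitation with a control antibody, so no value below has a replicate check and no p-value was computed across peaks or genes. The line's label as liver was set against the list as a whole. On contigs no hepatocyte, blood and immune, or endothelial and fibroblast marker gene had an assigned peak. On placed chromosomes 14 of 16 hepatocyte markers had one, against 4 of 8 blood and immune markers and 3 of 8 endothelial and fibroblast markers. Of all 20033 protein-coding genes, 13222 had the highest point of a placed peak inside their locus, which is a slightly different count. A peak can rest on 1 fragment, so these counts are a description and do not test the label.

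An alternative contig is a second version of a region that differs so much between people that a single reference sequence does not represent it. A random contig belongs to a known chromosome but has no known place on it, and an unplaced contig has no known chromosome. The same gene can therefore have a copy on its chromosome and on one or several contigs, and an aligner must divide near-identical reads between them. The most variable of these regions is the major histocompatibility complex (MHC) on chromosome 6, which encodes the molecules that present peptides to T cells and many unrelated housekeeping proteins between them. CRTC2 is a coactivator of the transcription factor CREB, and RIP-seq reads the RNA that is recovered with a protein.

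Each peak has a fold enrichment, the authors' ratio of RIP over control at the peak's highest point, and a q, the authors' p-value adjusted over the list. The number of RIP fragments and the local input level behind each fold were recovered from the deposited fold and p. A fragment is 1 read as the peak caller counted it, and the input level is the number of fragments expected there from the input. It cannot fall under a floor of 0.0298. An interval beside a fold is the exact Poisson 95% interval of its RIP fragments at a fixed input level, and an interval beside a share is the exact Clopper-Pearson 95% interval. Both cover counting error only, and neighbouring peaks of a contig are not independent. In such bulk libraries, fewer cells that hold an RNA and less of it per cell cannot be told apart.

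The sequence of the contigs themselves was not used here. The promoters of the placed copies are given for 3 protein-coding genes. These are the genes whose start site lay inside a contig peak of at most 1 kb at q of at most 0.05. The printed windows lie before the start, so they show sequence beside the peaks more than under them. They are the 250 bases before the start on the plus strand, from RefSeq (GRCh38.p14), 5′ to 3′, at chr16:4425618-4425867 for DNAJA3, chr11:576220-576469 for PHRF1 and chr19:54200608-54200857 for RPS9. Capitals mark the CREB half-site TGACG on either strand.
DNAJA3: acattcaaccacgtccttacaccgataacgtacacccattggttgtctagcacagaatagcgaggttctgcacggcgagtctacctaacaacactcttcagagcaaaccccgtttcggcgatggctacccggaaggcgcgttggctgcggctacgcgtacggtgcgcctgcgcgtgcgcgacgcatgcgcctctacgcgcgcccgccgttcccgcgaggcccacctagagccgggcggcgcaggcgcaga
PHRF1: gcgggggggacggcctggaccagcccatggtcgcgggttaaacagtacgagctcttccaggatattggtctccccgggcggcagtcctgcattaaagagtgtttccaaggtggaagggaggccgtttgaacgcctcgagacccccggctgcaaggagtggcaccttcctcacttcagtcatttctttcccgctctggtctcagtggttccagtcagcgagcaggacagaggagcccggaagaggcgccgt
RPS9: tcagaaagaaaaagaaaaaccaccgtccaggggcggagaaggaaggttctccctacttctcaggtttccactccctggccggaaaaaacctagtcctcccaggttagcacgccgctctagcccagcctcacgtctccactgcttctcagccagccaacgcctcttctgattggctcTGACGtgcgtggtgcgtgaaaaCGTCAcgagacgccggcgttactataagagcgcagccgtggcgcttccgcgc
DNAJA3 encodes a mitochondrial HSP40 co-chaperone, PHRF1 a ubiquitin ligase with PHD and RING fingers, and RPS9 a protein of the small ribosomal subunit. The half-site occurred 2 times before RPS9, the nearer one beginning 52 bases before the start, and not in the other two windows. Of 9 genes with a narrow promoter-class contig peak at that q, 7 matched the promoter table, and 1 of the 7 held the half-site. Over all 35116 promoters of this length the half-site occurred in 21.2%, and the full 8-base site (TGACG followed by TCA) in 1.65% and in none of the 7.

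Contig peaks reached a q of at most 0.05 more often than peaks on placed chromosomes. The limit was met by 95 of 1138 contig peaks (8.35%, 6.81 to 10.1) and by 2764 of 174408 placed peaks (1.58%, 1.53 to 1.64), and by 1.63% of all peaks together. A fold of at least 4 was reached by 64 contig peaks (5.62%, 4.36 to 7.13) and by 1.61% of placed peaks (1.55 to 1.67), also 1.63% of all. The middle of the distribution hardly differed, with a median fold of 1.94 on contigs (quartiles 1.85 and 2.73) and 1.89 on placed chromosomes (quartiles 1.76 and 2.35). A fold of 1.94 is what 1 fragment over the input floor gives, and 239 contig peaks were of that kind. The highest fold was 12.7 on contigs and 29.1 on placed chromosomes. Leaving out each of the 121 contigs in turn kept the contig share between 7.75% and 8.55%. At the limit itself, the contig peak just inside was assigned to the 5.8S ribosomal RNA gene RNA5-8SN4 (−log10 q 1.43, fold 4.14), and the one just outside to RNA5-8SN5 (−log10 q 1.28, fold 2.45).

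The peaks were also of another shape. Contig peaks had a median width of 231 bp against 101 bp for placed peaks, and 342 of them (30.1%, 27.4 to 32.8) were wider than 10 kb, against 9.06% of placed peaks. Of the contig peaks, 95 began at the first base of their contig, and 17 placed peaks began at the first base of theirs. The input level lay at its floor for 29.9% of contig peaks and 10.2% of placed peaks, and the median input level was 0.0786 on contigs and 0.236 on placed chromosomes. A single RIP fragment supported 570 contig peaks (50.1%, 47.1 to 53.0) and 46.1% of placed peaks. At least 5 fragments supported 12.3% of contig peaks and 23.4% of placed peaks, so contig peaks rested on fewer fragments and on less input.

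The larger share at q was present within every class of width and input. Among peaks of 31 to 100 bp, 11 of 375 contig peaks reached it (2.93%) against 1.01% of placed peaks, and among those of over 100 to 1000 bp, 32 of 293 (10.9%) against 2.01%. Above 10 kb it was 41 of 342 contig peaks (12.0%) against 2.53% of placed peaks. With the input at its floor, 10.3% of contig peaks and 2.01% of placed peaks reached it, and above the floor 7.52% of contig peaks and 1.54% of placed peaks. With 3 fragments at the summit the shares were 29.1% on contigs and 4.98% on placed chromosomes, and with at least 5 they were 36.4% on contigs and 3.61% on placed chromosomes. At a given number of fragments p depends on the input level alone, so the fragment classes describe input and are no separate check. With at least 5 fragments the median input level was 1.90 on contigs and 3.17 on placed chromosomes. No contig peak with 1 or 2 fragments reached the limit, and no placed peak did. In each of the other classes named here the intervals of contigs and placed chromosomes did not overlap.

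**Figure D1:**
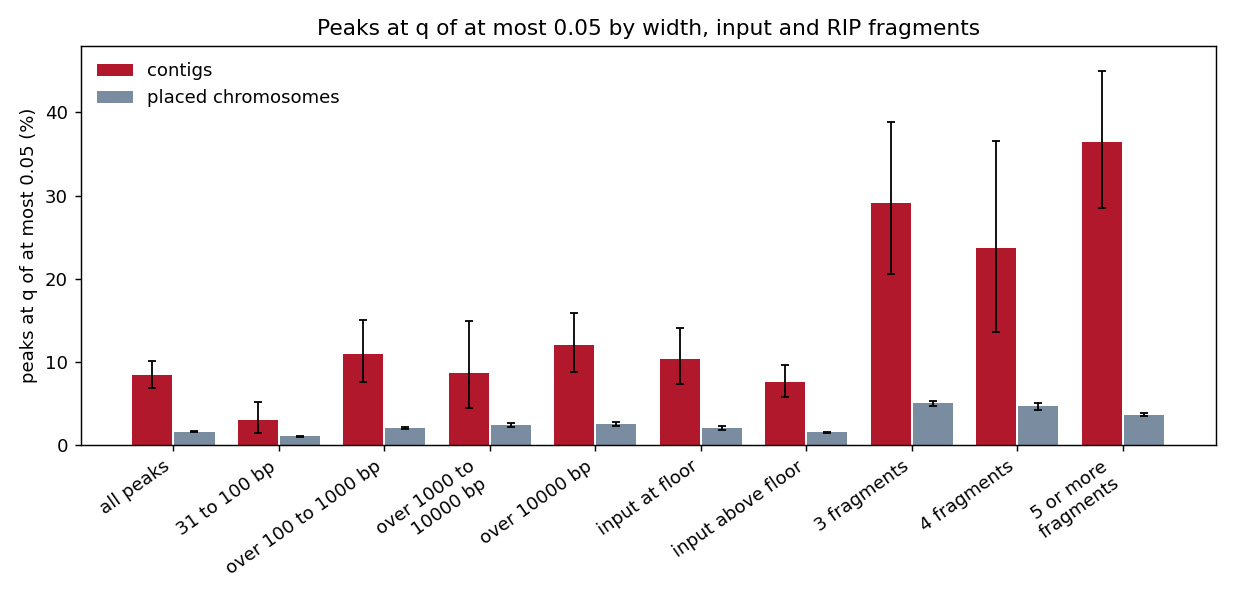
Share of peaks at a q of at most 0.05 (%) on contigs (red) and placed chromosomes (grey), for all peaks and by peak width, input level and number of RIP fragments at the summit. Bars are shares and lines exact 95% binomial intervals. The contig share is the higher one in each of the 10 classes, from 2.93% for the narrowest peaks to 36.4% with at least 5 fragments. At a given number of fragments p depends on the input level alone.

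The 95 peaks at that q had a median fold of 4.85 on a median of 5 fragments. These peaks were of overlapping kinds, and a peak can count in several. There were 41 wider than 10 kb, 35 with the input at its floor and 30 on 3 fragments, the smallest number that reached it. There were 31 that were at most 1 kb wide and held at least 5 fragments, and these are the ones whose place within a gene is best defined. Of the peaks at that q, 43.2% on contigs and 14.4% on placed chromosomes were wider than 10 kb, and 36.8% on contigs and 12.9% on placed chromosomes had the input at its floor. The contig peaks among them lay on 38 of the 121 contigs.

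By the authors' annotation, 551 contig peaks (48.4%, 45.5 to 51.4) were in the promoter class, which the annotation gives to any peak near or over a start site before any other class. On placed chromosomes it was 20.7%. Exons held 27.1% of contig peaks and 30.4% of placed peaks, 3′ UTRs 10.5% of contig and 13.9% of placed peaks, and introns 7.03% of contig and 26.8% of placed peaks. Width moved with these shares, and its part in them was not tested beyond the following split. Above 10 kb 81.3% of contig peaks were in the promoter class, against 46.9% of placed peaks. Among peaks of at most 1 kb the class held 34.0% on contigs and 18.5% on placed chromosomes, and exons 36.4% on contigs and 33.5% on placed chromosomes. Of the 95 peaks at q, 61 were in the promoter class, 29 in exons, 2 in 3′ UTRs, 2 in distal intergenic sequence and 1 in a 5′ UTR. None of the 80 intron peaks on contigs reached it (0 to 4.51%), and on placed chromosomes 0.373% of intron peaks did, a share that 80 peaks cannot tell from 0.

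Most contigs held few peaks. The median was 3 per contig, 39 contigs held 1 peak and 32 held 10 or more. Of the 39 single peaks, 35 began at the first base, 34 had the input at its floor and 29 rested on 1 fragment, and 1 of the 39 reached q of 0.05. The 5 fullest contigs held 323 peaks (28.4%). They were chr16_KI270853v1_alt with 98 peaks, chr17_KI270857v1_alt with 80, chr5_GL339449v2_alt with 53, chr15_KI270905v1_alt with 50 and chr17_KI270861v1_alt with 42. The contigs of chromosome 17 together held 222 peaks, those of chromosome 6 197 and those of chromosome 16 159. On chr17_KI270857v1_alt 13 of 80 peaks (16.3%) reached q of 0.05, on chr16_KI270853v1_alt 10 of 98 (10.2%), and on chr17_KI270861v1_alt 2 of 42 (4.76%).

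**Figure D2:**
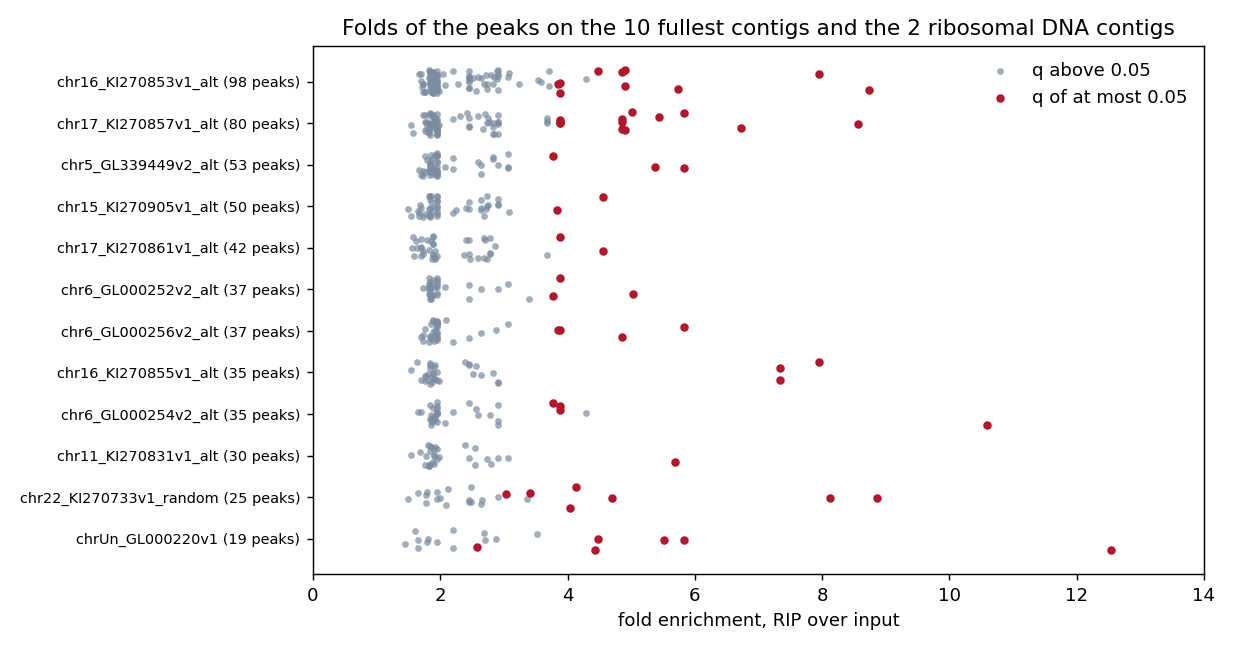
Fold of every peak (horizontal axis, RIP over input) on the 10 contigs with most peaks and on the 2 ribosomal DNA contigs at the bottom, with red points for peaks at a q of at most 0.05 and vertical scatter only to separate points. Most points lie near the median of 1.94, also the fold of 1 fragment over the input floor. A few per contig stand apart, up to 12.5 on chrUn_GL000220v1.

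The 2 contigs with ribosomal DNA differed from the others. These carry copies of the 45S unit, from which the 18S, 5.8S and 28S ribosomal RNAs are cut. chr22_KI270733v1_random held 25 peaks and chrUn_GL000220v1 held 19, and of these 44 peaks 13 reached q of 0.05 (29.5%, 16.8 to 45.2). Their summits held a median of 13.5 fragments at a median input level of 2.53, against 1 fragment at 0.0786 on the other contigs. They held 660 of the 3138 fragments counted at contig summits (21.0%). The highest peak was assigned to the 18S gene RNA18SN3 (chrUn_GL000220v1, 153446 to 154347), where 14 fragments gave a fold of 12.5 (7.23 to 20.5). The next was at RNA45SN2, the full precursor, 437 bases from its start (chr22_KI270733v1_random, 122710 to 123070), with 8.86 (5.20 to 14.3) on 15 fragments. A second peak of RNA18SN3 (chr22_KI270733v1_random, 125952 to 126437) had 8.13 (5.17 to 12.2) on 21 fragments. The deepest summit was no enriched one, since a 2311-bp peak at the 28S gene RNA28SN2 had 36 fragments at an input level of 19.6 and a fold of 1.79 (1.27 to 2.46). Reads of these copies are of uncertain origin. RNA18SN3 was also assigned placed peaks, the highest with a fold of 13.6. Without both contigs 82 of 1094 contig peaks (7.50%, 6.01 to 9.22) reached q of 0.05.

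Of the 365 genes to which the contig peaks were assigned, all matched RefSeq, and 215 were protein-coding. The authors assigned each peak to the gene whose start site was closest. In 308 exon peaks it was the gene whose exon was hit in 161 (52.3%, against 55.0% of exon peaks on placed chromosomes), so exon peaks were also counted by exon. They lay in exons of 98 genes, 53 of which (54.1%) had no exon peak on a placed chromosome. Of the 21 genes with at least 5 contig exon peaks, 9 had none there. The protein-coding genes with a contig peak had no placed summit anywhere in their RefSeq locus in 108 of 215 cases (50.2%), against 34.0% of all 20033 protein-coding genes.

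PRPF8, the central protein of the U5 particle of the spliceosome, had the most contig exon peaks. Its 19 peaks on chr17_KI270861v1_alt lay in 19 different exons between exon 15 and exon 39 of 43, and no exon peak and no summit fell in its locus on chromosome 17. Their summits held 33 fragments in all, with a median fold of 2.38 and a highest of 2.85, and none reached q of 0.05. By nearest start, 9 of these 19 were assigned to PRPF8 and the other 10 to its neighbour RILP, an effector of the lysosomal GTPase RAB7. The RILP assignments thus describe PRPF8 exons. RILP itself had a promoter-class peak of 272 bp (chr17_KI270861v1_alt, 79457 to 79728) whose 4 fragments gave 4.55 (1.90 to 10.2). That peak reached q of 0.05.

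DLG5, a junctional scaffold protein of the MAGUK family, showed the same spread over its exons with higher folds. All of its 16 peaks lay on chr10_KI270825v1_alt, 13 of them in 12 exons from exon 4 to exon 27 of 32, and none in its locus on chromosome 10 (77790791 to 77940736). The highest was a 9797-bp peak at exon 5 (82688 to 92484) with 8.66 (4.29 to 16.1) on 8 fragments at an input level of 0.0393. The narrow peak nearest its start, 160 bp wide (164906 to 165065), had 5.37 (2.35 to 11.3) on 5 fragments. The other 14 lay between 1.76 and 3.06. Both of the higher peaks were at q of 0.05, and 5 of the 16 peaks rested on 1 fragment.

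DNAJA3, the co-chaperone whose promoter is printed above, was the best covered of the protein-coding genes with no summit at their chromosomal locus. Its 9 peaks on chr16_KI270855v1_alt held 66 fragments, and 3 reached q of 0.05. The peak over its start (128185 to 128443) had a fold of 7.96 (4.41 to 13.4) on 12 fragments. The peak in exon 7 of 9 (151058 to 151196) had 7.35 (3.97 to 12.7) on 11 fragments, and an 11538-bp peak after the start (128856 to 140393) had the same values. Between them, exons 2 to 6 carried peaks of 1.70 to 2.65, and the peak in exon 6 had 11 fragments too, at an input level of 5.07 and a fold of 1.98. The exon 6 and exon 7 peaks thus held the same number of RIP fragments and differed in input.

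TAF15, an RNA-binding protein of the FET family, had exon peaks in 8 exons from exon 5 to exon 12 of 16 on chr17_KI270857v1_alt, with 55 fragments and none on chromosome 17. The exon 11 peak (72992 to 73112) had 5.44 (2.38 to 11.5) and the exon 6 peak (57308 to 57388) 5.01, both on 5 fragments, while the exon 9 and exon 10 peaks had 1.77 and 2.71 on 12 fragments each. On the same contig CISD3, a mitochondrial iron-sulphur protein, was assigned 10 peaks by nearest start, and its locus on chromosome 17 had none. The highest, 986 bases from its start (2766646 to 2766782), had 6.73 (3.55 to 11.9) on 10 fragments. By annotation 1 of the 10 lay in an exon of PCGF2. SMN1, which assembles spliceosomal small nuclear RNPs, had peaks in 6 exons from exon 2 to exon 7 of 9 on chr5_GL339449v2_alt, led by exon 7 (464584 to 464675) with 5.37 (2.35 to 11.3) on 5 fragments. SMN1 has a near-identical copy, SMN2, so the origin of its reads is uncertain. TUBB, a beta-tubulin gene of the MHC region, had 10 peaks on 5 contigs and none at its locus, with a highest fold of 3.40 (1.38 to 8.30) on 3 fragments.

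PHRF1, UTP4 and CLPTM1L had exon peaks in both places. PHRF1 had 11 exon peaks on chr11_KI270832v1_alt, in 7 exons, and 5 on chromosome 11. Its highest contig peak, in the 5′ UTR class (111185 to 111291), had 8.34 (4.13 to 15.5) on 8 fragments, and the peak over its start (106102 to 106270) had 7.06 (4.14 to 11.4) on 15. UTP4, of the machinery that matures the small ribosomal subunit, had 7 exon peaks on chr16_GL383557v1_alt, up to 4.72, and 9 on chromosome 16, up to 2.45. CLPTM1L had 9 on chr5_KI270791v1_alt, up to 4.90, and 9 on chromosome 5, up to 3.64. Others went the other way. NOMO3, of a family with near-identical copies, had 10 on a contig, up to 3.71, and 13 on chromosome 16, up to 4.65. TAF4, a TFIID subunit, had 5 on a contig, up to 3.10, and 4 on chromosome 20, up to 6.12.

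Over the 168 genes (46.0% of 365, 40.8 to 51.3) to which peaks were assigned in both places, neither place held the higher folds. The highest contig fold was above the highest placed fold for 77 genes, below it for 77 and equal for 14. The median difference, contig minus chromosome, was 0 (−0.20 to 0.08, interval from order statistics). A peak at q of 0.05 was found on a contig only for 25 of the 168 genes, on a placed chromosome only for 28, on both for 9 and on neither for 106. Among the 9 were RNA18SN3, the 14-3-3 protein gene YWHAE (4.85 on a contig, 4.47 on chromosome 17) and RRN3, an RNA polymerase I initiation factor (3.85 on a contig, 3.78 on chromosome 16).

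The largest differences were these. FLOT1, a membrane scaffold protein, had 7.70 (3.67 to 14.8) on 7 fragments on chr6_GL000255v2_alt, in a peak of 13806 bp, and 1.84 on chromosome 6. SNORD131, a small nucleolar RNA, had 7.35 in a peak over the first 5701 bases of a random contig and 1.89 on chromosome 11. IFNGR2, a chain of the interferon gamma receptor, had 6.91 (3.30 to 13.3) on 7 fragments in exon 4 of 8 (chr21_GL383581v2_alt, 21504 to 21634) and 2.18 on chromosome 21. PHRF1 had 8.34 on its contig and 2.91 on chromosome 11. RPS9 had 5.29 (2.86 to 9.12) on 11 fragments at its start (chr19_KI270938v1_alt, 175840 to 175894) and 1.94 on chromosome 19. In the other direction, SNORA54 was assigned 2.91 on a contig and 12.7 on chromosome 11, both by nearest start. Counted by exon, NAP1L4 had a highest placed fold of 12.7 too, so the 12.7 is not placed in the SNORA54 RNA. CYFIP1, of the WAVE complex, had 1.94 on a contig and 7.77 on chromosome 15. MTMR10 had 1.94 on a contig and 7.76 on a placed chromosome, RAB11FIP3 had 2.91 on a contig and 7.77 on a placed chromosome, and MIR937 1.94 on a contig and 6.73 on a placed chromosome. All 5 of these lower contig folds rested on 1 or 2 fragments.

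**Figure D3:**
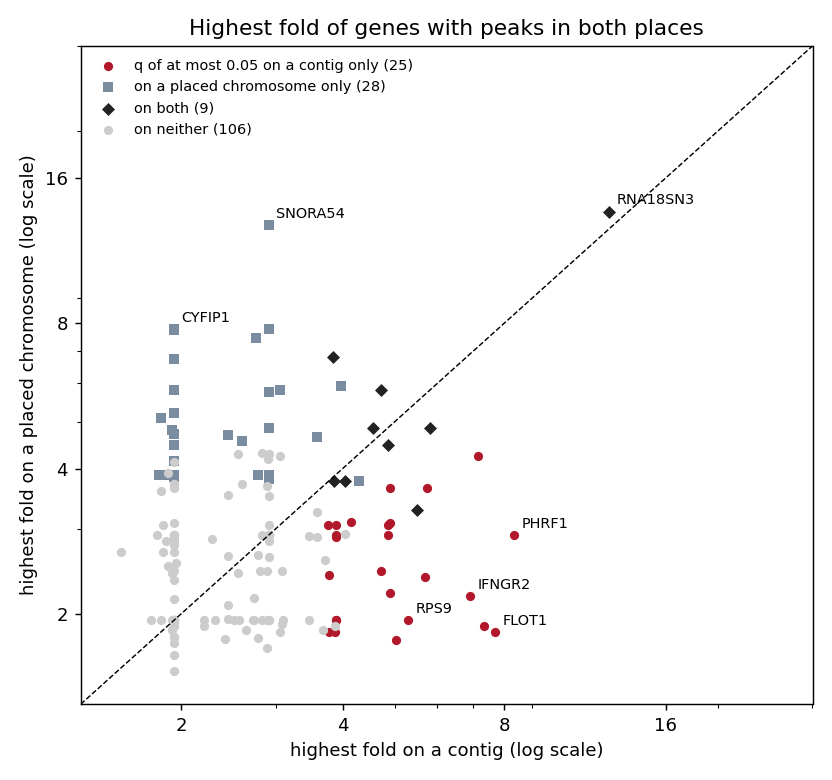
Highest fold on a contig (horizontal, log scale) and highest fold on a placed chromosome (vertical, log scale) for the 168 genes with assigned peaks in both places, one point per gene and the dashed line marking equal folds. Points at q of at most 0.05 on a contig only (25) lie under the line to the right and those on a placed chromosome only (28) mostly over it to the left, with 9 genes at q in both.

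Whole contigs were set beside the chromosome span of the same genes for the 23 alternative contigs with at least 10 peaks and 3 genes on 1 chromosome. More peaks lay on the contig than on the span in 15 and fewer in 8, so neither copy held most peaks everywhere. The 23 are not separate regions. The MHC contigs among them were set against nearly the same span of chromosome 6. Likewise, chr17_GL000258v2_alt and chr17_KI270908v1_alt were set against overlapping spans of chromosome 17. All of these fell among the 15, so some spans count several times there. Peaks at q of 0.05 were more numerous on the contig in 8, fewer in 10 and equal in 5. The genes of chr17_KI270857v1_alt, among them TAF15, CISD3 and the proteasome subunit gene PSMB3, had 80 peaks with 232 fragments on the contig and 25 with 63 fragments on chromosome 17. Those of chr17_KI270861v1_alt had 42 peaks on the contig and 9 on chromosome 17, and those of chr16_KI270855v1_alt 35 on the contig and 8 on chromosome 16. The opposite held for chr7_KI270806v1_alt, with 17 peaks against 45 on chromosome 7, for chr17_KI270860v1_alt, with 15 against 59 on chromosome 17, and for chr8_KI270816v1_alt, with 11 against 55 on chromosome 8. Fragments followed the peak numbers in these 6 contigs. Contig and span can differ in length and gene content, and how the aligner divided reads between them was not tested.

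**Figure D4:**
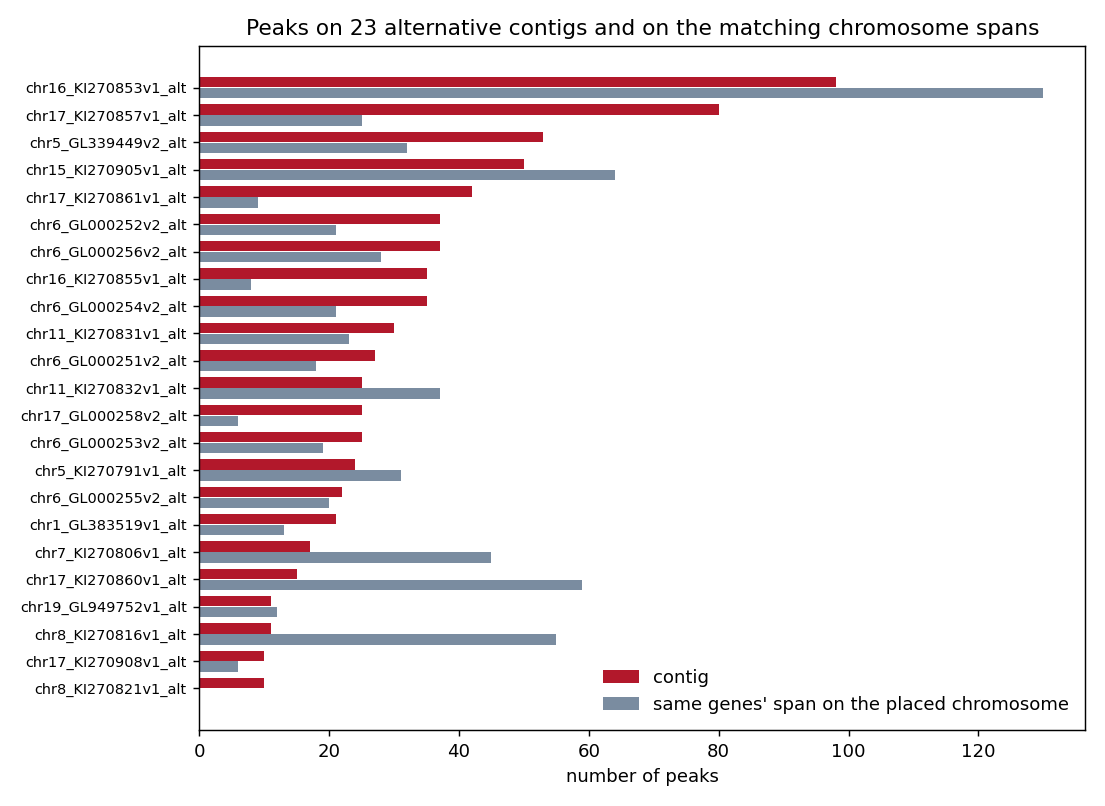
Number of peaks on 23 alternative contigs (red) and on the span of the same genes on the placed chromosome (grey), ordered by the contig's number. The contig bar is the longer one in 15 of the 23, among them chr17_KI270857v1_alt with 80 against 25, and the shorter one in 8. The MHC contigs share nearly the same span, and so do chr17_GL000258v2_alt and chr17_KI270908v1_alt, so the bars are not independent.

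The 7 MHC contigs of chromosome 6, each a different haplotype of the same region, held 191 peaks (16.8% of all contig peaks), 381 fragments and peaks of 67 genes. From 8 to 37 peaks lay on each. Their median fold was 1.94, and 82 (42.9%) were wider than 10 kb. Of the 191 peaks 14 reached q of 0.05, from 0 on chr6_GL000253v2_alt to 4 each on chr6_GL000254v2_alt and chr6_GL000256v2_alt. Over all contig peaks it was 95 of 1138 (8.35%). All alternative contigs of chromosome 6 together held 17.3% of contig peaks and 15.8% of those at q of 0.05, which is no larger share. No gene had a peak on all 7 MHC contigs, 3 had one on 6, and 40 had one on a single contig. The 3 on 6 contigs were TRIM10, MIR877 and PSORS1C3. The TRIM10 peaks were 137644 to 854643 bp wide, the MIR877 peaks 31 to 766408 bp and the PSORS1C3 peaks 346227 to 894913 bp. Each PSORS1C3 peak rested on 1 fragment. Peaks this wide are assigned to a gene whose start they span, so this sharing does not locate RNA of these genes.

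Within the complex, none of 15 listed class II genes was assigned a contig peak, 1 of 5 antigen-processing genes was, and 14 of 65 class III and neighbouring genes were. These counts go by nearest start and are a description only. Counted by exon, the listed genes PRRC2A and VARS2 had 2 contig exon peaks each, and DDR1 and KIFC1 had 1 each, all assigned to other genes. Class I molecules present peptides from inside every nucleated cell. The class I heavy chain gene HLA-C had 7 peaks on 3 contigs, up to 2.56 (1.06 to 7.01) on 2 fragments, and MICA 2 peaks, up to 1.84. TAPBP, the tapasin that loads peptides on class I, had 2 peaks, both at 1.94 or less.

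Class III and its neighbours encode proteins of many functions. BRD2, a bromodomain protein, had 9 peaks on 4 contigs, up to 3.06 (1.28 to 6.88) on 4 fragments. FLOT1 had 1 peak on each of 4 contigs, at 7.70 on chr6_GL000255v2_alt and at 1.84 to 1.94 on the other three. CLIC1, an intracellular chloride channel protein, had 5 peaks on 4 contigs up to 2.59 and 2 on chromosome 6 up to 4.55. Of the 15 antigen-processing, class III and neighbouring genes with an assigned contig peak, 4 also had one on chromosome 6. The HLA genes have near-identical copies, so the origin of their reads is uncertain. C4B_2, a complement gene, was assigned peaks on 5 contigs because they span its start. Those peaks were 242239 to 1468006 bp wide on 1 to 3 fragments, so they do not place reads in the gene.

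**Figure D5:**
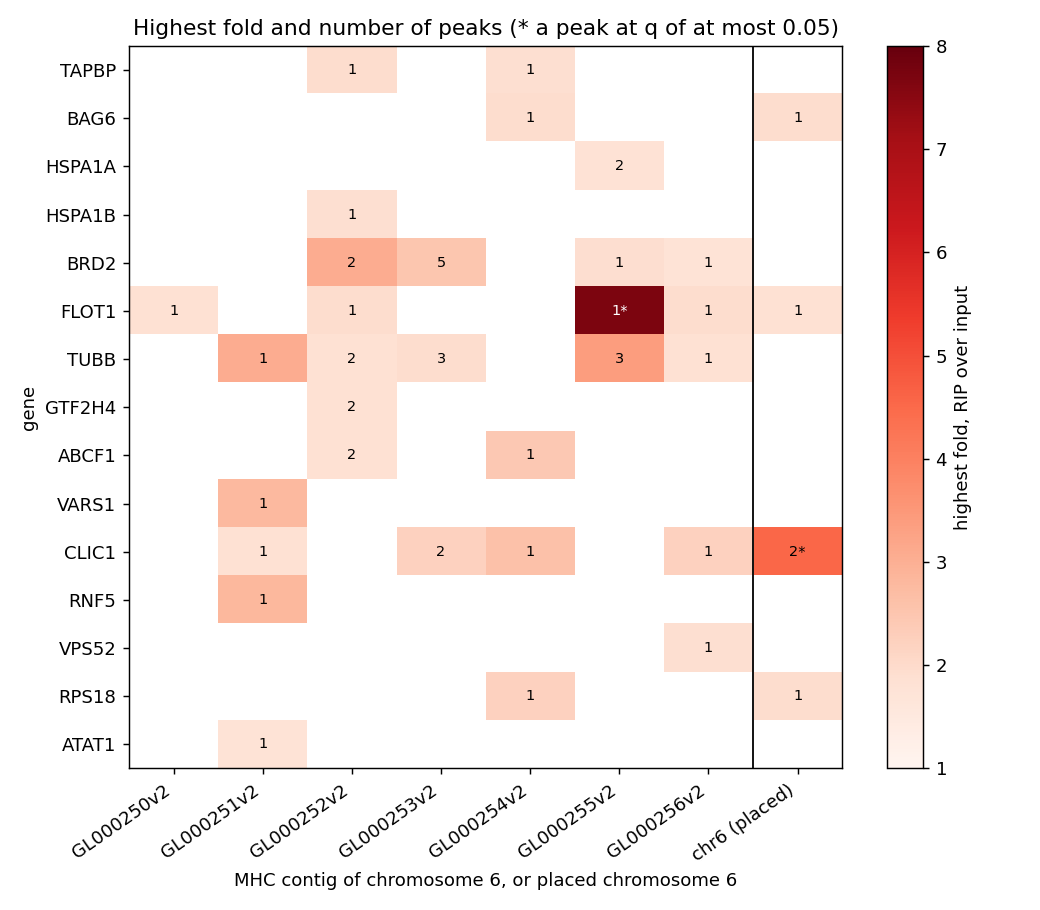
Highest fold (colour, RIP over input) of the 15 listed antigen-processing, class III and neighbouring MHC genes with an assigned contig peak. Columns are the MHC contigs and, right of the line, placed chromosome 6. Numbers are peaks, a star marks a peak at q of at most 0.05 and white means no assigned peak. 30 of the contig cells are filled, and 1 of them, FLOT1 on chr6_GL000255v2_alt, holds a starred peak.

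The widest and highest peaks were often the hardest to place. The highest contig fold of all, 12.7 (7.21 to 21.2) on 13 fragments, belonged to a peak of 264134 bp on chr19_KI270938v1_alt (176144 to 440277), in the leukocyte receptor complex, where the receptors of natural killer cells lie. It was assigned to the miRNA gene MIR4752, whose start it covers. APOM, the gene of an apolipoprotein of high-density lipoproteins, was assigned a 12578-bp peak on chr6_GL000254v2_alt with 10.6 (5.58 to 18.7) on 10 fragments. LINC01015 was assigned 9.71 (4.97 to 17.6) on 9 fragments in a peak covering the first 1147972 bases of chr6_GL000250v2_alt. MIR3180-4 had 8.74 on 8 fragments in a peak of 367333 bp, LOC100287808 8.57 on 13 fragments in one of 9302 bp, and NDE1, a dynein regulator, 7.96 on 12 fragments in one of 54363 bp. The fold of such a peak describes its summit, and the assigned gene is the one whose start the peak spans, so neither locates an RNA.

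The remaining gene groups differed in how many genes had a contig peak. In the 17q21.31 inversion, no contig peak of the 13 listed genes reached q of 0.05. By nearest start, STH had folds up to 3.06, KANSL1 up to 2.91 and PLEKHM1 up to 1.94. The STH peak of 3.06 lay in exon 8 of KANSL1, and 7 of the 12 STH peaks lay in exons of other genes. Counted by exon, KANSL1, a subunit of a histone acetyltransferase complex, had 7 contig exon peaks up to 3.06 and 1 on chromosome 17. All 7 were assigned to other genes. Of 37 leukocyte receptor complex genes 5 had a contig peak, among them RPS9 and OSCAR, an osteoclast receptor with 5 peaks on 5 contigs up to 3.88, and no KIR or LILR gene was among the 5. Of the 19 peaks of these genes 3 (15.8%) reached q of 0.05, against 8.35% of all contig peaks. They were the RPS9 peak at its start and OSCAR peaks of 132692 and 175357 bp, each on 3 fragments. None of 12 drug metabolism genes had one, against 4 with a placed peak. Of 14 cancer and growth genes with alternative copies, DLG5 and PHRF1 were assigned contig peaks, and 5 of their 20 peaks (25%) reached q of 0.05, with a median fold of 2.83. Counted by exon, ACACA of the same list had 3 contig exon peaks, 1 of them at q of 0.05, all assigned to other genes. That list was chosen with these results known, so its share is a description only. Many assigned peaks, beside those of DLG5, belonged to the pseudogene MAFIP with 17, all on a random contig, up to 2.90, NTAN1 with 16 up to 4.28, and IRF7, an interferon regulatory factor, with 16 up to 4.05. No peak of MAFIP, NTAN1 or IRF7 reached q of 0.05, and 11 of the 16 IRF7 peaks lay in exons of other genes.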

How the data were processed

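One CRTC2 RIP library and 1 input library of HCCLM3 cells were analysed as 1 deposited peak list. The submitters' processing notes name HISAT2, MACS2 and the build hg38, without versions or settings. The values the authors deposited per peak are a fold (a linear ratio, taken here as RIP over input), a −log10 p and a −log10 q, both identified by place and values because their headers were spoiled. The deposited score was not used. Annotation classes and nearest genes are the authors'.

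Fragments at each summit were recovered from fold and p (a pseudocount of 1 and a Poisson tail). A whole number met both within 0.001 for 100% of contig peaks, and a single number did for 97.7%. The recovery was tested on simulated data. Together the summits of the list held 620798 fragments, 3138 of them (0.505%) on contigs. Python 3.11.15 with pandas 2.3.3, numpy 2.4.6 and scipy 1.17.1 was used.

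The members, gene lists and limits were chosen with earlier results of these data known. Genes were named by rule: the 10 genes of highest fold, the 10 peaks of highest −log10 q, the 5 genes and 5 contigs with most peaks, up to 4 members of each list, the 5 genes on most contigs, and the 5 largest differences in each direction between contig and chromosome. Further genes, most of them described by exon (PRPF8, TAF15, DNAJA3, CISD3, SMN1, UTP4, CLPTM1L, NOMO3, TAF4, YWHAE, RRN3), were added after their values were seen. Alternatives changed the peak limits, the contigs included and the gene assignment. Some named results are not reported here.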

Additional observations from a re-analysis of the deposited data

How the results depend on the processing

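Of 71 recomputed values, 27 stayed within the main value's interval (counts within 1.5 times) and 44 moved beyond it. A change of direction was looked for only in the median difference between contig and chromosome. Its main value was 0, so no change of direction could be found. Stricter peak limits lowered the counts by construction. Contig peaks numbered 26 with −log10 q from 5 upwards, 95 at q up to 0.05, 64 with a fold from 4 upwards, 668 up to 1 kb, 140 with at least 5 fragments and 517 when peaks within 1 kb were merged. The genes with a contig peak were then 19, 75, 51, 203 and 74 under the first 5 limits, and 143 in exon and UTR classes only. The median fold under these 5 limits was 7.73, 4.85, 5.33, 1.89 and 2.76 on contigs, against 7.06, 4.48, 4.50, 1.84 and 2.07 on placed chromosomes. The contig share at q of 0.05 was 6.44% up to 1 kb and 36.4% with at least 5 fragments. The exon share was 23.1%, 30.5%, 32.8%, 36.4% and 35% under the 5 limits, 30.8% without the chromosome 6 contigs, and 2.0% weighted by width. The share of contig genes with a placed peak was 5.26%, 12.0% and 11.8% under the first 3 limits applied in both places, 25.7% with at least 5 fragments, 52.9% without the chromosome 6 contigs and 35.9% when a summit in the RefSeq locus was required, a setting chosen after seeing the data. The median difference between contig and chromosome was −1.08 at the strictest q, on 1 gene, 0.13 up to 1 kb and 0.64 with at least 5 fragments. The share on 1 fragment was 40.0% up to 1 kb. The chromosome 6 contigs held 17.3% of contig peaks, and 12.5% at a fold of at least 4, 14.8% up to 1 kb and 8.57% with at least 5 fragments. The cause was not tested for shifts other than the counts. No paired analysis was possible because each group has 1 library. At 1 or 2 fragments per summit, differences between single contig peaks were not detectable.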
